A study of Mus musculus with 9 samples.

Results

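Genes of 10 plasma membrane transporters for neutral and cationic amino acids were followed in HT22 cells, an immortalised mouse hippocampal neuronal line. They were taken by name from the deposited expression table and make up 10 of its 29756 entries: Slc38a1, Slc38a2, Slc1a4, Slc1a5, Slc6a9, Slc7a5, Slc7a6, Slc43a1, Slc7a1 and Slc7a3. RNA was sequenced in 9 libraries, with 3 replicates in each of 3 groups that the labels call control, experimental and intervention. The series title speaks of hemin, an oxidised heme, as the stimulus and of PPP8, a bioactive micelle, as the therapy. The labels do not tie either agent to a group and give no dose or time, so the groups keep their label names. All 9 libraries came from this 1 cell line, and nothing in the labels says that replicates were separate cultures, so the p-values rest on sample-to-sample spread alone, possibly technical.

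Cells take up most amino acids through carriers of the SLC families, several of which are made in larger amounts when amino acids run short. In that response the kinase GCN2, or another kinase of eIF2alpha, slows general translation while the factor ATF4 is made, and ATF4 switches on transporter and amino acid synthesis genes. In the brain the same carriers supply glutamine, serine and glycine, which neurons use to make or tune transmitters. Sodium-driven carriers such as SNAT2 load the cell with small neutral amino acids, and exchangers such as LAT1 then trade these for leucine and other essential ones.

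In experimental cells 8 of the 10 transporter genes were higher than in control cells, by 1.30-fold (Slc38a1) to 4.67-fold (Slc1a4), and the other 2 were hardly detected in any library. Intervention cells were also above control in these 8 genes, by 1.27-fold to 3.78-fold. Between the intervention and experimental groups the differences were small: Slc7a1, Slc38a2, Slc1a4 and Slc7a5 were 1.21-fold to 1.32-fold lower in intervention cells. Those calls were lost in several of the fits that left out a library. Of all tested genes 23.5% were called higher and 50.5% lower in experimental than in control cells. The shares were 24.1% and 41.1% for intervention against control, and 15.9% and 3.6% for intervention against experimental. Levels are FPKM, that is fragments scaled to gene length and to library size, which can be compared between genes. Summed over the 10 genes they came to 253.4, 248.8 and 273.4 FPKM in the control libraries, 653, 610 and 662 in the experimental libraries and 511, 571 and 554 in the intervention libraries. In RNA from a whole culture, fewer cells with a transcript and less of it per cell cannot be told apart.

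**Figure D1:**
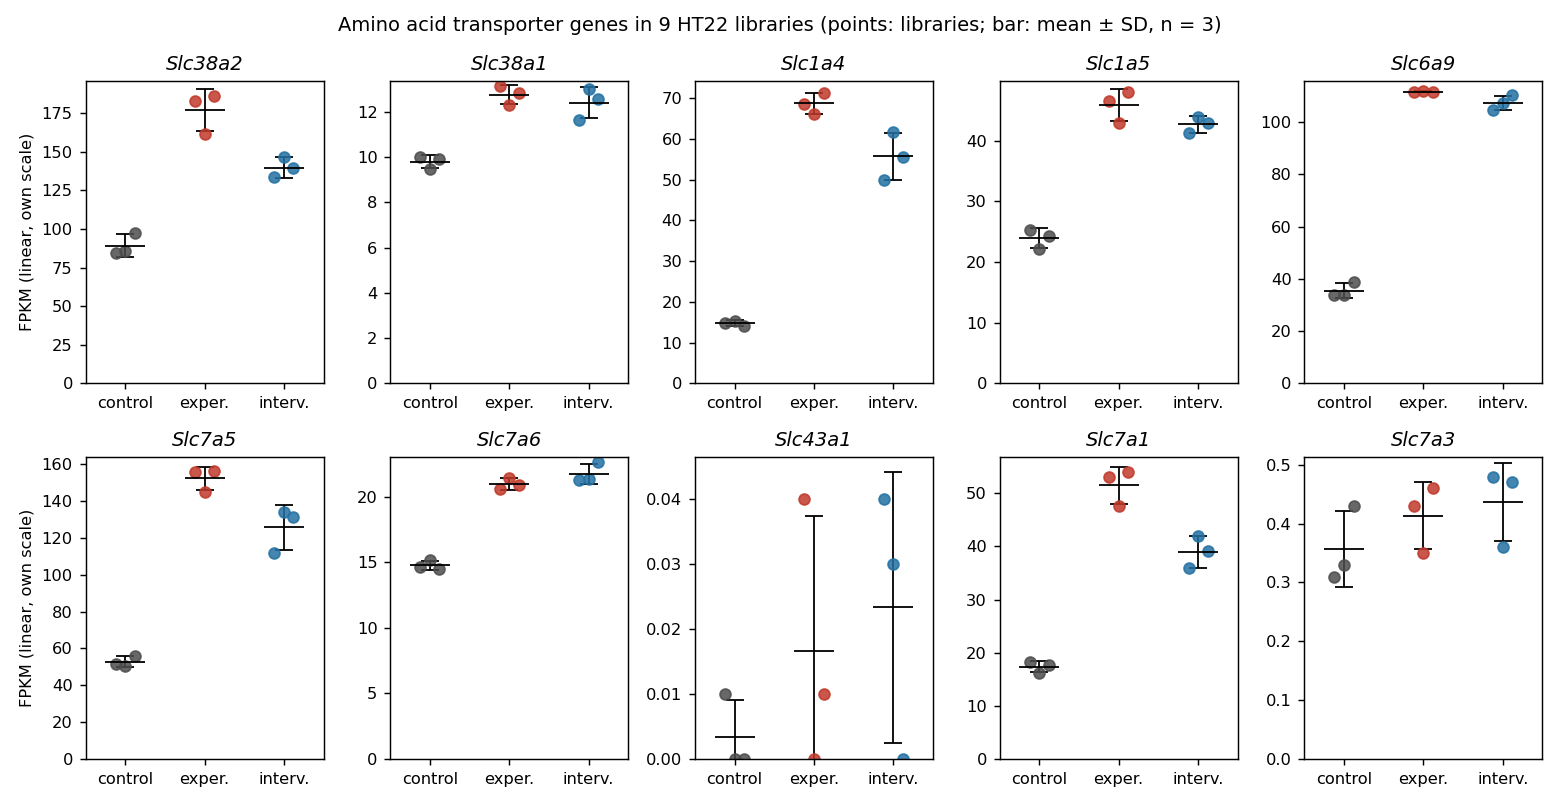
FPKM of each transporter gene (vertical axis, linear from 0, a scale of its own per panel) in the control, experimental and intervention libraries. Points are single libraries and bars the mean ± SD of 3. In 8 panels every experimental and intervention point lies above every control point, while Slc43a1 and Slc7a3 stay under 0.5 FPKM. How many of all tested genes separate in this way was not computed.

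Depth per library is unknown, since the table holds no read numbers. Summed FPKM over all genes was 316912 to 339943 per library, and 11154 to 11732 genes reached at least 1 FPKM. The 10 neuronal markers checked summed to 7.24 to 10.4 FPKM in control, 9.79 to 9.87 in experimental and 7.3 to 8.8 in intervention libraries. Of them, Tubb3, a neuronal tubulin, was the 1 at 1 FPKM or more in all libraries (5.69 to 8.12 in controls), and Map2, Rbfox3, Nes and Dcx stayed under 0.3. The 6 markers of microglia and blood summed to 10.6 to 12.1 FPKM in control, 1.08 to 1.97 in experimental and 1.66 to 2.95 in intervention libraries. Tmem119, at 9.48 to 11.1 in controls and 0.75 to 1.09 in experimental libraries, made up 83.8% to 97.3% of that sum in control, 55.3% to 87.2% in experimental and 68.1% to 83.7% in intervention libraries, while the leukocyte marker Ptprc was at or near 0. The 6 astrocyte markers summed to 5.79 to 7.04, 2.63 to 2.95 and 2.32 to 3.94 FPKM in the same order, mostly from Slc1a3, and the 6 of oligodendrocytes and endothelium to 0.9 to 1.78, 0.99 to 1.41 and 0.48 to 1.41. The part of these markers in the transporter results was not tested.

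Promoter sequence is shown for the 5 tested genes that the RefSeq promoter table (GRCm38.p6) holds, because these genes moved together against control. A pair of short motifs was searched on both strands. TGATGNAA is the core of the C/EBP-ATF response element to which ATF4 binds with a C/EBP partner, and TGACNNNGC is the core of the antioxidant response element to which NRF2 binds. Each line runs 5′ to 3′ on the strand of the gene, from 90 bases before the start site to 10 bases from it on, at the RefSeq start nearest the annotated gene start, which lies 752 bases away in Slc6a9 and at most 3 in the others. Capitals mark a motif match.

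Slc1a4: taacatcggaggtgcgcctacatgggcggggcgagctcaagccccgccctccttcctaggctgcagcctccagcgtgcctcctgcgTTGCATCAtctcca
Slc38a2: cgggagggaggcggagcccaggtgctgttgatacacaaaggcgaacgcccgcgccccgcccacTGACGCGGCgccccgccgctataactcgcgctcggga
Slc7a1: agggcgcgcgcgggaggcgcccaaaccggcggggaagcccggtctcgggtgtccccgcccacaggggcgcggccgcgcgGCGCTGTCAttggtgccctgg
Slc7a6: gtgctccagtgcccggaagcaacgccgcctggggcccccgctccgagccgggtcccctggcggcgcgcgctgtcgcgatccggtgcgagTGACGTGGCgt
Slc6a9: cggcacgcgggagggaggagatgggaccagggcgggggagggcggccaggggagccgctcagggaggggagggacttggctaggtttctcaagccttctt

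These stretches lie at chr11:20332704-20332803, chr15:96699719-96699818 and chr5:148399895-148399994 on the minus strand and at chr8:106168764-106168863 and chr4:117835168-117835267 on the plus strand. The capitals in Slc1a4 are a TGATGNAA match on the opposite strand, from base -4 to base 4 around the start site. The capitals in Slc38a2, Slc7a1 and Slc7a6 are TGACNNNGC matches, and the Slc6a9 stretch holds neither motif. At 2 other RefSeq starts of Slc6a9 TGACNNNGC lies at bases -46 to -38 and -45 to -37. Slc43a1, hardly detected in any library and not printed here, holds a TGACNNNGC match too. It lies on the opposite strand at bases -16 to -8, at a RefSeq start 1473 bases from the annotated gene start. In the full 300-base windows TGATGNAA occurred in 3.97% and TGACNNNGC in 12.4% of all 32851 promoter entries, and in stretches of the printed length in 1.48% and 4.89%. The 2 motifs do not overlap in these stretches. A match describes letters only, and a stretch without one says nothing about the factor.

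Experimental cells were first compared with control cells, as differences in log2(FPKM + 1) tested with limma. All 8 tested transporter genes were called higher (Benjamini-Hochberg adjusted p under 0.05 over all 11974 genes tested) and 0 lower, also at an unadjusted p under 0.05. Of all tested genes 23.5% were called higher and 50.5% lower, a balance that depended on the scaling: with median-ratio scaling, which sets the median difference of all genes near 0, the shares were 36.6% and 36.4%. All 8 transporter genes were called higher under that scaling too. The median difference was 1.25 log2 units over the 8 genes and -0.21 over all genes. The 8 genes stood at 9.46 FPKM or more in every library, so none passed the filter on low values through 1 group alone.

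Slc38a2 and Slc38a1 encode SNAT2 and SNAT1, which bring in glutamine, alanine and other small neutral amino acids with sodium. Slc38a2 was the most abundant of the 10 genes in each group. It stood at 84.6, 85.6 and 97.6 FPKM in the control libraries and at 183, 162 and 186 in the experimental libraries. The groups did not overlap, with means of 89.3 ± 7.23 and 177 ± 13.4 FPKM (SD, n = 3 each), a log2 difference of 0.98 (SE 0.07, adjusted p = 1.22e-06). Slc38a1 was far lower and changed least of the 8 genes. It was 10.03, 9.46 and 9.93 FPKM in control and 13.2, 12.3 and 12.8 in experimental libraries, again without overlap. The log2 difference was 0.35 (SE 0.05, adjusted p = 0.000201).

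Slc1a4 and Slc1a5 encode ASCT1 and ASCT2, sodium-dependent exchangers of alanine, serine and cysteine, the second of which also carries glutamine. Slc1a4 rose most of all 10. Control libraries held 14.8, 15.4 and 13.98 FPKM and experimental libraries 68.6, 66.2 and 71.4. Every experimental value was thus more than 4 times every control value, and the log2 difference was 2.15 (SE 0.07, 95% confidence interval 1.99 to 2.31, adjusted p = 2.22e-08). That interval lay above those of the other 7 genes, and 0.326% of all tested genes had a larger difference. Slc1a5 was 25.3, 22.1 and 24.3 FPKM in control and 46.6, 42.9 and 48.1 in experimental libraries. This gene rose 1.92-fold (log2 difference 0.91, SE 0.06, adjusted p = 7.15e-07), so that Slc1a4, below Slc1a5 in every control library, was above it in every experimental library.

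Slc6a9 encodes GLYT1, which takes up glycine with sodium and chloride and sets the glycine level around NMDA receptors. Its 3 control libraries held 33.7, 33.9 and 38.9 FPKM. The experimental libraries lay close together at 111.8, 111.8 and 111.6 FPKM, a 3.15-fold rise (log2 difference 1.63, SE 0.06, adjusted p = 2.65e-08). In the annotation (GENCODE M21 on mm10) 1429 of the 5141 exon bases of Slc6a9 are shared with Ccdc24 on the other strand. The use of strand in counting is not given in the sources used here, so reads there cannot be assigned to 1 of the 2. Ccdc24 itself was listed at a mean of 1.17 FPKM in control and 2.42 in experimental libraries. B4galt2 and Gm17114, also on the other strand, share 46 and 511 exon bases with Slc6a9 and were listed at means of 6.54 and 0 FPKM in experimental libraries.

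Slc7a5 encodes LAT1, which exchanges intracellular glutamine for leucine and other large neutral amino acids. Control libraries held 51.8, 50.6 and 56.0 FPKM, and experimental libraries 156, 145 and 156. All experimental values were above 2.5 times the highest control value, and the log2 difference was 1.51 (SE 0.07, adjusted p = 1.04e-07). In FPKM this was the largest gain of the 10 genes, 99.6 on average, ahead of Slc38a2 with 87.9 and Slc6a9 with 76.2. Slc7a6 encodes y+LAT2, which lets arginine out in exchange for neutral amino acids and sodium. It went from 14.7, 15.2 and 14.5 FPKM in control to 20.6, 21.5 and 20.9 in experimental libraries, with no overlap (log2 difference 0.48, SE 0.05, adjusted p = 6.52e-06).

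Slc7a1 encodes CAT1, the widely expressed importer of arginine, lysine and ornithine. It was 18.2, 16.2 and 17.8 FPKM in control libraries and 53.0, 47.5 and 53.9 in experimental libraries, which did not overlap. The 2.96-fold rise (log2 difference 1.51, SE 0.07, adjusted p = 1.01e-07) was close to that of Slc7a5. Slc7a3, the related carrier CAT3 known from neurons, was 0.31, 0.33 and 0.43 FPKM in control, 0.43, 0.35 and 0.46 in experimental and 0.48, 0.36 and 0.47 in intervention libraries. The 3 groups overlapped, and the gene was below the filter of 1 FPKM in at least 3 libraries. Slc43a1, which encodes the leucine carrier LAT3, was at most 0.04 FPKM and was listed at 0 in 4 of 9 libraries.

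The order of levels shifted with the group. In control cells it ran Slc38a2, Slc7a5, Slc6a9, Slc1a5, Slc7a1, Slc7a6, Slc1a4, Slc38a1, Slc7a3 and Slc43a1, and of these neighbours only Slc7a6 and Slc1a4 overlapped. In experimental cells Slc1a4 moved up to the fourth place, above Slc7a1 and Slc1a5, which overlapped each other. In intervention cells Slc38a2 overlapped Slc7a5, and Slc1a5 overlapped Slc7a1. As a share of the summed FPKM of the 10 genes, Slc1a4 went from 5.71% ± 0.546 in control to 10.7% ± 0.187 in experimental libraries. Slc38a2 went from 34.5% ± 1.16 to 27.6% ± 0.903 although its own level rose.

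Intervention cells were then compared with experimental cells. Slc7a1, Slc38a2, Slc1a4 and Slc7a5 were called lower, 0 transporter genes were called higher (0 also at an unadjusted p under 0.05), and the other 4 tested genes did not pass the test. Of all tested genes 3.6% were called lower and 15.9% higher. These shares were not stable either: 946 genes were lower and 567 higher with median-ratio scaling, and 0 were lower and 1 higher without experimental replicate 1, against 431 and 1906. The median difference was -0.19 log2 units over the 8 genes and 0.10 over all genes. This comparison shares the experimental libraries with the first one, so the differences are set side by side and not related to each other.

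Slc7a1 had the largest difference. Intervention libraries held 35.9, 42.0 and 39.1 FPKM, below all 3 experimental values (log2 difference -0.39, SE 0.07, adjusted p = 0.0153). Slc38a2 was 134, 147 and 139 FPKM, again below every experimental library (log2 difference -0.34, SE 0.07, adjusted p = 0.0191). Slc1a4 was 50.04, 61.6 and 55.5 FPKM without overlap (log2 difference -0.30, SE 0.07, adjusted p = 0.024). Slc7a5 was 112, 134 and 132 FPKM, also without overlap (log2 difference -0.28, SE 0.07, adjusted p = 0.0304). For all 4 the intervention values stayed well above those of control.

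These 4 calls, like most of those over all genes, were lost when certain single libraries were left out. Over all genes limma called 4 higher and 0 lower without experimental replicate 3, and 3 in each direction without intervention replicate 1. Without experimental replicate 1, experimental replicate 3 or intervention replicate 1, 0 of the 8 genes were called lower by limma, although 4 had an unadjusted p under 0.05 each time. Without intervention replicate 3, 1 was called, Slc7a1. Where a call was lost the adjusted p was 0.0506 to 0.103, and the 4 log2 differences stayed between -0.45 and -0.20 over all fits that left out a library. Quantile normalization ended the Slc7a5 call (adjusted p = 0.0562), and with no filter on low values Slc7a1 alone was called. Intervention replicate 1 was the lowest intervention library in all 8 tested genes, and experimental replicate 2 was the lowest experimental library in 6 of 8.

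The remaining genes differed less. Slc6a9 was 105, 107 and 110 FPKM in intervention libraries, just below the experimental values, and its difference of -0.06 log2 units did not pass the test (95% confidence interval -0.18 to 0.07, adjusted p = 0.497). Slc1a5 was 41.2, 44.0 and 43.0 FPKM and overlapped the experimental libraries (log2 difference -0.10, 95% confidence interval -0.24 to 0.04, adjusted p = 0.269). Slc38a1 was 11.7, 13.0 and 12.6 FPKM, also with overlap (log2 difference -0.04, 95% confidence interval -0.16 to 0.08, adjusted p = 0.64). Slc7a6 was 21.3, 21.4 and 22.7 FPKM, the 1 tested transporter gene with a higher mean in intervention cells (log2 difference 0.05, 95% confidence interval -0.05 to 0.15, adjusted p = 0.448). Its sign turned with median-ratio scaling (-0.06) and quantile normalization (-0.01).

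**Figure D2:**
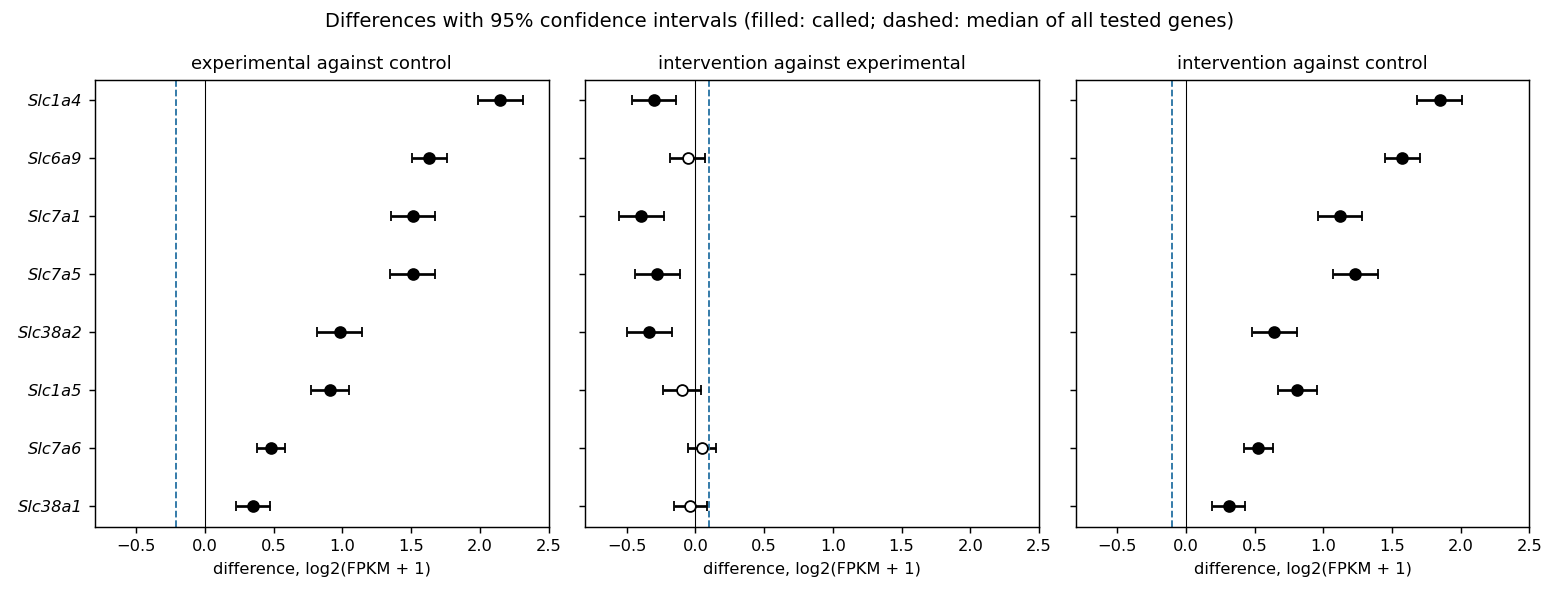
Differences of the 8 tested transporter genes in log2(FPKM + 1) with 95% confidence intervals from limma, for the 3 comparisons. Filled points were called, open points were not, and the dashed line is the median of all tested genes (-0.21, 0.10 and -0.10). All 8 points are filled and above 0 in both comparisons with control, and 4 are filled and below 0 between intervention and experimental. Of all tested genes 23.5% (experimental) and 24.1% (intervention) were called higher than control, and 3.6% lower in intervention than in experimental cells.

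The last comparison was of intervention with control cells, with the same control libraries as the first. All 8 tested genes were called higher and 0 lower (0 also at an unadjusted p under 0.05). Of all tested genes 24.1% were called higher and 41.1% lower (32.7% and 32.4% with median-ratio scaling). The median difference was 0.97 log2 units over the 8 genes and -0.10 over all genes. Slc1a4 again led at 55.7 ± 5.80 FPKM against 14.7 ± 0.703 in control (log2 difference 1.85, SE 0.07, adjusted p = 5.92e-08). Slc6a9 followed at 107 ± 2.78 against 35.5 ± 2.92 FPKM (1.57, SE 0.06, adjusted p = 3.94e-08). The log2 differences of the others were 1.23 for Slc7a5, 1.12 for Slc7a1, 0.81 for Slc1a5, 0.64 for Slc38a2, 0.53 for Slc7a6 and 0.31 for Slc38a1 (adjusted p at most 0.000594).

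Ratios of related transporters within a library do not move with the scaling of that library. They were computed for 7 pairs and 3 comparisons, and with 3 libraries against 3 the smallest 2-sided p of the exact permutation test is 0.1, so none of these 21 tests could reach 0.05. The ratio of Slc1a4 to Slc1a5 was 0.574 to 0.695 in control, 1.47 to 1.54 in experimental and 1.21 to 1.40 in intervention libraries. None of the 3 ranges overlapped (exact p = 0.1 for each comparison, adjusted 0.111). The same held for Slc38a2 to Slc38a1, at 8.43 to 9.83, 13.1 to 14.5 and 11.1 to 11.4, and for Slc7a5 to Slc7a6, at 3.33 to 3.86, 6.76 to 7.57 and 5.26 to 6.27. Slc7a1 to Slc7a6 was 1.07 to 1.24, 2.21 to 2.58 and 1.69 to 1.96 (the same exact p and adjusted value). In these 4 pairs, which were chosen after values were seen, the intervention range lay between those of control and experimental libraries.

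The pair Slc7a5 and Slc7a1, 1 carrier of neutral and 1 of cationic amino acids, kept nearly the same ratio. It was 3.04 ± 0.163 in control and 2.96 ± 0.0807 in experimental libraries, with overlap (exact permutation p = 0.5). In intervention libraries it was 3.23 ± 0.124, above every experimental library (exact permutation p = 0.1) but overlapping control (exact permutation p = 0.3).

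**Figure D3:**
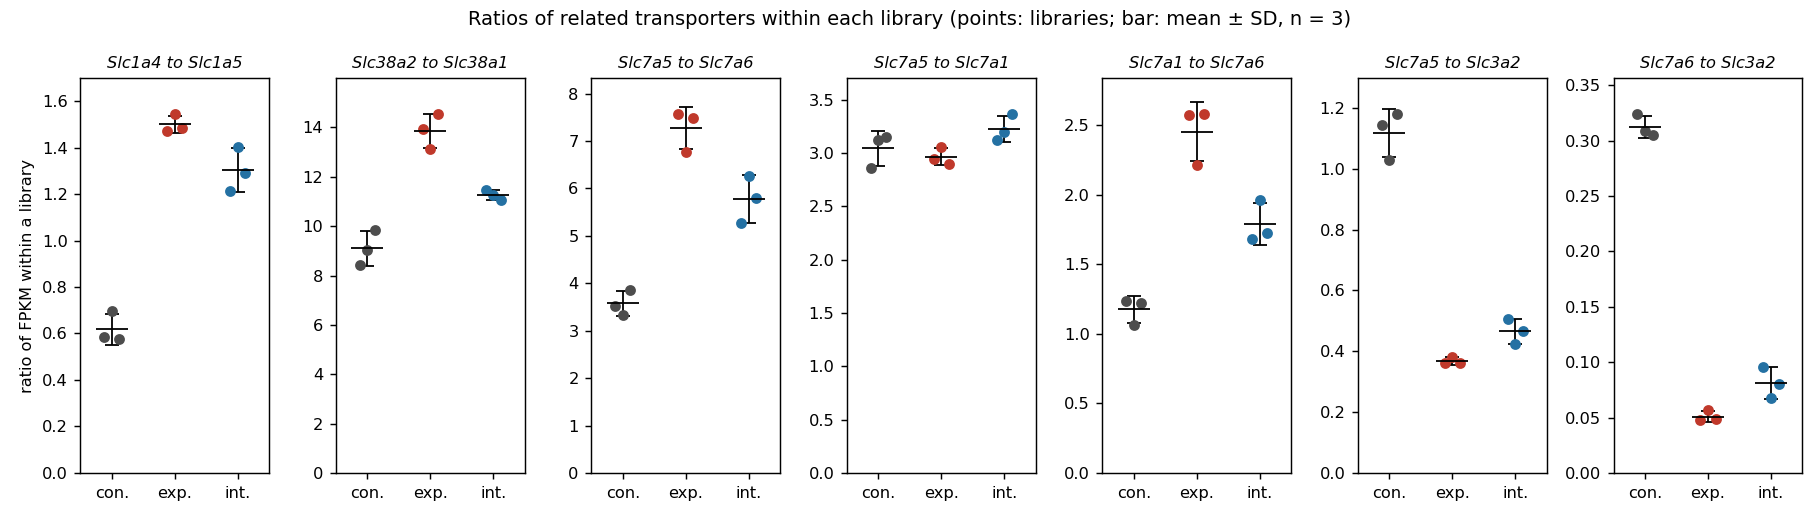
Ratio of the FPKM of 2 genes within a library (vertical axis, linear from 0) for 7 pairs of related transporters in control (con.), experimental (exp.) and intervention (int.) libraries. Points are libraries and bars the mean ± SD of 3. Slc1a4 to Slc1a5 goes from below 1 in controls to above 1 elsewhere, and both ratios to Slc3a2 fall.

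LAT1 and y+LAT2 reach the membrane only with the heavy chain 4F2hc, encoded by Slc3a2, which also pairs with the cystine carrier encoded by Slc7a11. Slc3a2 was 45.3, 49.2 and 47.5 FPKM in control, 432, 380 and 433 in experimental and 221, 317 and 281 in intervention libraries, so the 3 groups did not overlap. It rose more than any of the 10 genes (log2 difference 3.10, SE 0.11, adjusted p = 2.75e-08, experimental against control). Slc7a5 stood at 1.12 ± 0.0778 of the Slc3a2 level in control, 0.368 ± 0.0122 in experimental and 0.466 ± 0.0413 in intervention libraries, and Slc7a6 at 0.313 ± 0.00987, 0.0508 ± 0.00494 and 0.0814 ± 0.0143 (exact permutation p = 0.1 for each comparison). Slc7a11 went the other way, with 22.5 ± 3.22 FPKM in control, 1.70 ± 0.0458 in experimental and 27.7 ± 2.02 in intervention libraries (log2 difference of experimental against control -3.11, SE 0.09, adjusted p = 1.2e-08).

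Other amino acid carriers of the plasma membrane and lysosome were read from a list of 46 genes, of which 36 were in the table and 14 were tested. Against control, 4 of the 14 rose in experimental cells (Slc3a2, Slc6a6, Slc16a10 and Slc15a4) and 6 fell (Slc7a11, Slc1a3, Slc38a10, Slc36a1, Slc36a4 and Ctns), with a median of -0.13 log2 units. That is near the 23.5% and 50.5% of all tested genes and their median of -0.21. After median-ratio scaling 6 rose and 4 fell, with a median of 0.08, beside 36.6% and 36.4% of all tested genes. Slc6a6, the taurine carrier, went from 25.9 ± 1.66 to 43.2 ± 0.586 FPKM (adjusted p = 1.38e-06). Slc1a3, a glutamate carrier of glia, went from 5.27 ± 0.407 to 2.10 ± 0.21 FPKM (adjusted p = 6.18e-06). Between intervention and experimental cells 1 of the 14 rose (Slc7a11) and 2 fell (Slc3a2 and Slc16a10), beside 15.9% and 3.6% of all tested genes. Both decreases were lost without experimental replicate 1, experimental replicate 3 or intervention replicate 1, when 0 of the 14 were called lower. Against control 4 were higher and 6 lower in intervention cells, or 4 and 3 after median-ratio scaling. Of all tested genes 24.1% were higher and 41.1% lower, or 32.7% and 32.4% after that scaling. The light chain genes Slc7a7 and Slc7a8, which serve the same exchanges as Slc7a6 and Slc7a5 and were picked after their values were seen, were not tested, at a mean of 0.933 and 0.05 FPKM in control and 0.383 and 0.0267 in experimental libraries.

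Amino acid sensors and other genes around mTORC1, the kinase complex that couples supply to growth, formed a list of 24, of which 22 were tested. It also holds the mTORC1 subunit genes Mtor, Rptor and Mlst8, and Ddit4, a stress-induced inhibitor of the complex. In experimental cells 15 fell and 2 rose against control (13 and 7 after median-ratio scaling), with a median of -0.56 log2 units. Mtor and Mlst8 were among the 15. Of all tested genes 50.5% fell and 23.5% rose, with a median of -0.21 (36.4% and 36.6% after median-ratio scaling). Lamtor1, which anchors the Ragulator complex to lysosomes, went from 19.0 ± 1.72 to 7.75 ± 0.811 FPKM (adjusted p = 1.46e-06). Castor2 went from 6.90 ± 0.716 to 3.11 ± 0.208 FPKM and Sesn3 from 4.03 ± 0.234 to 1.82 ± 0.0666 (adjusted p = 2.99e-06 and 2.08e-06). Sesn2, a leucine sensor and ATF4 target, rose from 14.4 ± 1.64 to 38.6 ± 3.82 FPKM (adjusted p = 3.43e-06) and stood at 24.5 ± 3.88 in intervention cells. Between intervention and experimental cells 7 rose and 2 fell, beside 15.9% and 3.6% of all tested genes (4.74% and 7.9% after median-ratio scaling). With median-ratio scaling 0 rose and 3 fell, and without experimental replicate 1, experimental replicate 3 or intervention replicate 1 limma called 0 in either direction. Against control 1 was higher and 12 lower in intervention cells, or 5 and 10 after median-ratio scaling. Of all tested genes 24.1% were higher and 41.1% lower, or 32.7% and 32.4% after that scaling.

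The kinases of eIF2alpha, ATF4 and their partners formed a list of 12, all tested. In experimental cells 7 rose and 2 fell against control (10 and 2 after median-ratio scaling), with a median of 0.30 log2 units. The shares of all tested genes were 23.5% and 50.5% (36.6% and 36.4% after median-ratio scaling), and their median was -0.21. Between intervention and experimental cells 1 rose (Eif2ak2) and 1 fell (Ddit3), and against control 7 were higher and 2 lower in intervention cells. Of all tested genes 15.9% rose and 3.6% fell in the first of these comparisons, and 24.1% and 41.1% in the second. Atf4 mRNA was 216, 227 and 204 FPKM in control, 296, 302 and 295 in experimental and 307, 305 and 314 in intervention libraries. It was higher than control in both other groups (adjusted p = 1.06e-05 and 8.91e-06), and its difference between them did not pass the test (0.05 log2 units, adjusted p = 0.453, or -0.07 after median-ratio scaling). Asns, asparagine synthetase, was 74.9 ± 3.27 FPKM in control, 133 ± 1.41 in experimental and 137 ± 0.899 in intervention libraries. Trib3, a pseudokinase induced by ATF4, was 17.0 ± 0.743, 34.9 ± 0.612 and 36.3 ± 0.595 FPKM. Ddit3, the stress factor CHOP, was 24.8 ± 2.06, 98.2 ± 4.42 and 82.2 ± 5.41 FPKM, and was called lower in intervention than in experimental cells (adjusted p = 0.0335), a call lost with the same 3 libraries and without intervention replicate 3 (adjusted p at most 0.125). Eif2ak2, the kinase PKR, fell from 13.5 ± 0.626 to 6.46 ± 0.681 FPKM against control (adjusted p = 2.69e-06) and stood at 9.40 ± 0.87 in intervention cells (adjusted p = 0.0151 against experimental, lost with the same 3 libraries, at most 0.0637). Eif2ak4, which encodes GCN2, was the other gene of this list that fell in experimental cells (log2 difference -0.44, adjusted p = 4.61e-05). It was also lower than control in intervention cells (-0.31, adjusted p = 0.000771). Eif2ak1, the heme-regulated kinase HRI, was 12.04 ± 0.461 FPKM in control and 11.6 ± 0.237 in experimental libraries. Its difference of -0.05 log2 units did not pass the test (adjusted p = 0.341), and with median-ratio scaling it was 0.18 (adjusted p = 0.00526).

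**Figure D4:**
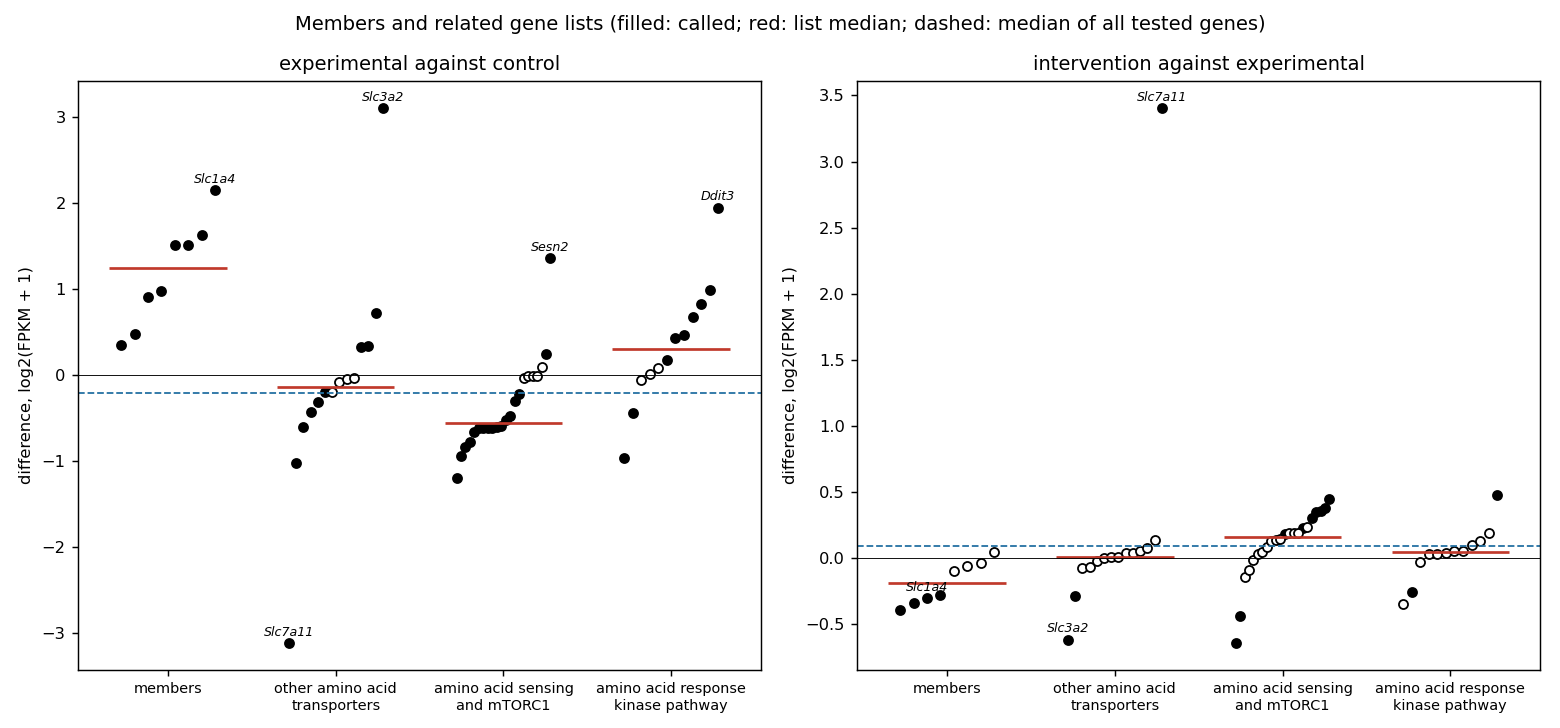
Differences in log2(FPKM + 1) of the 8 tested transporter genes (members) and of the tested genes of 3 related lists, for experimental against control and for intervention against experimental. Filled points were called by limma, red lines are list medians and the dashed line is the median of all tested genes. Slc3a2 (3.10) and Slc7a11 (-3.11) bound the left panel, and Slc7a11 (3.41) stands alone in the right panel.

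Genes whose profile over the 9 libraries was most like that of a transporter gene were found by Euclidean distance between log2(FPKM + 1) values, each profile centred on its own mean, among 6839 genes at a mean of at least 5 FPKM. Of the 9 values, libraries of 1 group share their condition, so a small distance mostly says that 3 group means lie alike. Nearest to Slc6a9 was Fth1, the ferritin heavy chain, at a distance of 0.045, with 418 ± 29.6, 1303 ± 16.4 and 1250 ± 19.0 FPKM in control, experimental and intervention libraries. Nearest to Slc7a6 were Atf4 (0.081) and Gtpbp2 (0.082), and to Slc38a1 the helicase gene Dhx8 (0.091) and the initiation factor gene Eif3a (0.104). Slc38a2 was nearest to the ubiquitin ligase gene Rlim (0.096) and to Zcchc2 (0.177). Slc7a5 was nearest to the nucleolar genes Ddx21 (0.159) and Gnl3 (0.195), and Slc1a5 to Nol9 (0.140) and Abhd2 (0.142). Slc1a4 was nearest to Eaf1 (0.205) and the small heat shock gene Hspb8 (0.241), and Slc7a1 to Tgoln1 (0.253) and Esf1 (0.254), with Slc7a5 nearer than either (0.216). With median-ratio scaling both named genes stayed the nearest 2 for 5 of the 8, and 1 of 2 stayed for Slc7a1, Slc38a1 and Slc38a2.

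The tested genes lie on 6 chromosomes of mm10 in GENCODE M21. Slc38a1 (chr15:96571418-96642913) and Slc38a2 (chr15:96687392-96699730) are neighbours on the minus strand. Slc7a6 (chr8:106168857-106198706, plus strand) and Slc7a5 (chr8:121881150-121907694, minus strand) share a chromosome. Slc1a4 is at chr11:20302180-20332713 (minus), Slc1a5 at chr7:16781340-16798274 (plus), Slc6a9 at chr4:117834506-117875198 (plus) and Slc7a1 at chr5:148327410-148399904 (minus). Apart from Slc6a9, no tested gene shares exon bases with another annotated gene.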

How the data were processed

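RNA of 9 HT22 libraries (3 per group) was measured. The authors deposited 1 table of FPKM per gene and library with 2 decimals, and per the submitters' processing notes the genome build was mm10. Aligner, counter, annotation and strandedness were each not given in the sources used here. Whole reads could not be recovered: of 8039 values above 0 in genes under 200 nt, 17.2% were below 1 read of a library of 200 M reads, so no count test was run.

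Values were taken as log2(FPKM + 1). Entries with at least 1 FPKM in at least 3 of 9 libraries were tested (11974 of 29756), which included 8 of the 10 transporter genes. limma 3.58.1 in R 4.3.3 (mean-variance trend, all libraries in 1 fit, no covariate) gave 2-sided p-values, adjusted by Benjamini-Hochberg within a comparison and called under 0.05. Differences on this scale understate changes of low genes. Ratios used the exact permutation test of scipy 1.17.1 in Python 3.11.15. The script was tested on simulated data. Of each related list, up to 4 genes with the smallest adjusted p are named, besides Slc3a2, Slc7a11, Atf4 and Eif2ak1, whatever they showed; others are named where a count or the annotation calls for them. The pairs for ratios were chosen after values were seen. The transporter genes and the lists were chosen with earlier results of these data known. Genes of a list without an entry were not analysed here. Each result was recomputed under 18 alternatives, 9 of which left out a library.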

Additional observations from a re-analysis of the deposited data

How the results depend on the processing

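In both comparisons with control, the 8 transporter genes called higher and the 0 called lower were the same counts under all 18 alternatives, with medians over these 8 of 1.19 to 1.49 log2 units (experimental) and 0.91 to 1.09 (intervention) wherever the filter kept only them. Between intervention and experimental cells, 4 genes were called lower in most settings, 1 with no filter on low values and 0 to 4 with a library left out. Slc7a6 turned to -0.0627 with median-ratio scaling and -0.0120 with quantile normalization, and Slc38a1 ranged from -0.0704 to 0.00374 with a library left out, the last without intervention replicate 1. The ratio of summed FPKM against control was 2.48 in experimental libraries (2.96 with median-ratio scaling) and 2.11 in intervention libraries (2.32).

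Over all genes, experimental against control gave 2809 higher and 6047 lower, or 4380 and 4357 with median-ratio scaling, 4172 and 4432 with quantile normalization and 2146 and 3556 at a mean of at least 5 FPKM, where 7361 genes were tested. Intervention against control gave 2890 higher and 4926 lower, or 3912 and 3876 with median-ratio scaling and 2264 and 2865 at that mean. Intervention against experimental gave 1906 higher and 431 lower, or 273 and 85 with no filter on low values and 567 and 946 with median-ratio scaling. Quantile normalization gave 451 higher and 587 lower. With a library left out 1 to 2066 were higher and 0 to 505 lower, at most 4 in either direction without experimental replicate 1, experimental replicate 3 or intervention replicate 1. The cause of these shifts was not tested, other than that fewer genes were tested at the higher mean.

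With the replicate number as a block, intervention against experimental gave 1044 higher and 224 lower, and 8, 4 and 8 transporter genes were called in the 3 comparisons as without it. Of all tested genes 23.1% were then higher and 49.8% lower in experimental against control, and 23.3% and 40% in intervention against control. Deviations of same-numbered libraries correlated at -0.182 to 0.11, above 0.1 in 2 of 9 pairs. Of the 9 libraries, 2 correlated best with their own number. Whether same-numbered libraries share a culture or day is not in the labels and cannot be told from these correlations. Ddit3 lost its call under the block (adjusted p = 0.0658), as did Lamtor1 (0.0569). Alternatives for the lists, sums, ratios and likeness were chosen after seeing the data.

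Of the named list genes, Eif2ak1 turned to 0.18 (median-ratio) and 0.14 (quantile) in experimental against control, to -0.0234 (TPM) in intervention against control and to -0.00739 (median-ratio) in intervention against experimental. In that last comparison median-ratio scaling also turned Trib3 (-0.0587), Asns (-0.0768) and Atf4 (-0.0657). Depth is unknown, so low values such as those of Slc7a3 and Slc43a1 are limited by it to an unknown degree.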
